A study of Mus musculus with 12 samples.

Results

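Loss of Spdef in the mouse pancreatic tumour organoid line mT6 was read from 4 of the 12 libraries of the series. They are the 2 libraries titled mT6, KO1 and Empty (the knockout) and the 2 titled mT6, mRosa26 and Empty (the control), chosen by title alone. The alleles that all 4 share include Trp53LSLR172H/LOH and Pdx1-Cre, on strain C57/Bl6. In this design a Cre recombinase driven by the Pdx1 promoter switches on mutant Trp53 in pancreatic epithelium. The control clone was knocked out at Rosa26, a locus commonly used as a neutral target, and the knockout clone at Spdef. Both hold an empty expression vector, and both grew as epithelial organoids in domes of Matrigel. Another 2 mT6 libraries come from the same knockout clone with an SPDEF-OE vector, and their levels are given beside the others without a test. The second line, mT69a, has the same genotype and the same 3 conditions with 2 libraries each, and enters the difference between lines and the estimate of spread behind every p-value. The knockout is 1 clone and the control is 1 clone, so the loss of Spdef and any other difference between these clones cannot be told apart. Whether replicate libraries came from separate cultures is not stated, and the p-values cover only the spread between libraries, which may be technical.

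SPDEF is a transcription factor of the ETS family that is best known in mucus-producing epithelia. In goblet cells and in mucous cells of the airway and stomach it acts late in maturation and is needed for high expression of genes that fold, modify and package mucins. Those genes include Agr2, a disulfide isomerase of the endoplasmic reticulum, Ern2, a stress sensor of mucous cells, and the transcription factors Foxa3, Creb3l1 and Creb3l4. Unlike most ETS factors, which favour the core GGAA, SPDEF is known to bind the core GGAT.

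The promoters of the targeted gene and of 2 secretory genes described below are shown with every GGAT, read on either strand, in capitals. Each window of 300 bases ends 50 bases after the annotated start, on GRCm38.p6, from RefSeq. The Spdef promoter is at chr17:27728902-27729201 on the minus strand, that of Foxa3 at chr7:19023490-19023789 on the minus strand and that of Agr2 at chr12:35992675-35992974 on the plus strand.
Spdef: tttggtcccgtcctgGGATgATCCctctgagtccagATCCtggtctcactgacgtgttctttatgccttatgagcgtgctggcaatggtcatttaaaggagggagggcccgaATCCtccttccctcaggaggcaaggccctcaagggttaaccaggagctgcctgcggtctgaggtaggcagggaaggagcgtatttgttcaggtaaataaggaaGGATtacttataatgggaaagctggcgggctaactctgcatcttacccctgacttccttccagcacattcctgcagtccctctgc
Foxa3: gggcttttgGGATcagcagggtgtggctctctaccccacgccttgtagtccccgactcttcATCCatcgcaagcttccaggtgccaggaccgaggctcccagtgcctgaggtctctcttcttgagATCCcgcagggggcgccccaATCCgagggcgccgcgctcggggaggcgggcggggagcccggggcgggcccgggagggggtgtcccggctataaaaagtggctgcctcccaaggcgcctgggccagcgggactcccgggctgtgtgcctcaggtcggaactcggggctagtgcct
Agr2: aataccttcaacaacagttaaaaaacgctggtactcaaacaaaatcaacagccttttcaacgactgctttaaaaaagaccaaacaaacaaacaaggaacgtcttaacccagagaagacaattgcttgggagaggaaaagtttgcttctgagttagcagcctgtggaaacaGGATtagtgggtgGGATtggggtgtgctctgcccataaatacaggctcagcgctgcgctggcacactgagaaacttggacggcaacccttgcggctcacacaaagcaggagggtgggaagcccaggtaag
The letters GGAT, or ATCC on the other strand, occur 5 times in the Spdef promoter, 4 times in that of Foxa3 and 2 times in that of Agr2. They are common: 79.6% of all 32851 promoters of that length in the table hold them at least once, with a median of 2 matches (overlapping matches on opposite strands count separately). For promoters of tested genes the share is 76.1%. It is 78.9% for genes called lower and 70.8% for genes called higher outside chromosomes 1, 14, 17 and 19, a difference that was not tested. The promoter of Muc20, which fell, holds 0. The longer letters CCGGAT, or ATCCGG, occur in none of the 3 promoters shown, in 6.04% of all promoters and in 9.59% of those of tested genes. Outside chromosomes 1, 14, 17 and 19 they occur in 11.6% for genes called lower and 7.14% for genes called higher, also not tested. Promoters were found for 71 of those 100 lower genes and 122 of those 173 higher genes. Creb3l1, Ern2, Clca1 and Tff2 had none. A match describes letters and is not a binding site.

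Spdef itself, on the minus strand of chromosome 17 from 27714352 to 27728955 in GRCm38, was low in the control and at or near 0 in the knockout. Its levels, in CPM (counts scaled to a common library size), were 2.28 and 1.03 in the control and 0 and 0.0983 in the knockout. The groups did not overlap. Summed over each group, the counts were 22.7-fold lower in the knockout (95% exact interval from counting alone, 6.01 to 192). Of the annotated transcripts, the protein-coding Spdef-201 held 26.15 and 27.55 expected counts in the control libraries and 0 in both knockout libraries. The 2 counts of the second knockout library lay on Spdef-203, a transcript with a retained intron. In the test across all genes the fitted difference was -4.55 ± 1.09 on the log2 scale (standard error), with an adjusted p of 0.0517, and 0.00791 with the replicate number as a block. The SPDEF-OE libraries held 0.117 and 0 CPM of mouse Spdef. The labels do not give the sequence that their vector carries, so its expression was not checked, and SPDEF-OE is used only as the labels' name.

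Across the genome, 468 of 14473 tested genes (3.23%) differed between knockout and control at an adjusted p under 0.05 (edgeR's quasi-likelihood test on all 12 libraries, Benjamini-Hochberg adjusted, two-sided). Of these, 185 were higher in the knockout (1.28%) and 283 lower (1.96%), 104 and 183 of them by more than 2-fold. All 468 had CPM values that did not overlap between the groups, against 43% of all tested genes. With 2 libraries a group the call itself largely requires this, so it is not separate support for the calls. Of the 283 lower genes, 183 lie on chromosomes 1, 14, 17 and 19, described below. When the libraries were scaled on genes outside those chromosomes, 151 genes were higher and 392 lower. With the replicate number as a block, 1814 genes passed (12.5%), 781 higher (5.4%) and 1033 lower (7.14%), and all 468 were among them in the same direction. The calls depend on how many libraries set the spread: leaving out control replicate 1 or 2, or knockout replicate 1 or 2, gave 72, 53, 55 and 49 higher genes and 140, 117, 94 and 87 lower ones, and 91 of the 468 kept their call in all 4 of these fits. Below, "kept in all 4 fits" refers to that check.

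The organoids were epithelial. All 8 epithelial markers were detected, with summed TPM (a length-corrected level) of 3461 and 2303 in the control and 5105 and 3036 in the knockout. Fibroblast markers summed to 0.37 to 1.08 TPM over the 4 libraries, with Col3a1, Dcn, Lum and Postn among the 6 of 15 at 0. Of 20 acinar markers, 12 were at 0, Cpa1, Prss1 and Ptf1a among them, and the sum was 2.3 and 1.68 TPM in the control and 1.35 and 0.4 in the knockout. Endothelial markers summed to 10.1 and 11.4 TPM in the control and 10.8 and 10.4 in the knockout, with Cdh5 at 0. Of 26 tuft and endocrine markers 15 were at 0, and the sum was 21.7 and 22.2 TPM in the control and 15.9 and 15.1 in the knockout. Immune markers summed to 39.5 and 28.2 TPM in the control and 85.2 and 68 in the knockout, while Cd3e, Adgre1 and Tyrobp were among the 11 of 22 at 0. Without Ly6g, a gene of the Ly6 cluster described below, the immune sum was 20.8 and 14 TPM in the control and 22.9 and 12 in the knockout. Mitochondrial genes took 12.7% and 20.1% of counts in control replicates 1 and 2 and 13.9% and 23.9% in knockout replicates 1 and 2. Their part in the results was not tested.

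Transcription factors of the secretory programme were lower in the knockout. Creb3l1, a membrane-bound factor that activates secretory pathway genes, had 6.7 and 8.63 CPM in the control and 0.707 and 0.836 in the knockout. Foxa3, a forkhead factor of endoderm and mucous cells, had 9.05 and 6.39 CPM in the control and 1.68 and 1.82 in the knockout. Creb3l4, a relative of Creb3l1, had 3.58 and 3.07 CPM in the control and 1.33 and 1.87 in the knockout. In each of the 3 genes both knockout libraries lay below both control libraries. Creb3l1 fell by 3.29 ± 0.29 on the log2 scale (adjusted p = 0.00032) and Foxa3 by 2.11 ± 0.24 (adjusted p = 0.00197), and both were kept in all 4 fits. Creb3l4 fell by 1.0 ± 0.19 (adjusted p = 0.0194), a call lost without control replicate 1, control replicate 2 or knockout replicate 1 (adjusted p = 0.0982, 0.0655 and 0.133). In the SPDEF-OE libraries Creb3l1 stood at 30.2 and 43.2 CPM, Foxa3 at 17.5 and 13.7 and Creb3l4 at 77.9 and 84.7, above the control in every library. The related factors Foxa1 and Foxa2 were not called. Foxa2 had 2.43 and 1.61 CPM in the control and 5.3 and 4.23 in the knockout (log2 difference 1.26 ± 0.35, adjusted p = 0.091, and 0.00655 with the block).

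Folding and stress genes of mucous cells showed large differences with a wide spread. Agr2 had 90.5 and 108 CPM in the control and 12.4 and 24.2 in the knockout, with no overlap. Its log2 difference was -2.42 ± 0.56, with an adjusted p of 0.0572, and of 0.00316 with the block. Ern2 had 8.22 and 13.4 CPM in the control and 3 and 5.75 in the knockout, a log2 difference of -1.28 ± 0.40 (adjusted p = 0.131, and 0.00113 with the block). In the SPDEF-OE libraries Agr2 was at 107 and 243 CPM and Ern2 at 24.6 and 42.9. Qsox1, a sulfhydryl oxidase of the secretory pathway, fell from 42.9 and 45.4 CPM to 19.4 and 16.8 (log2 difference -1.29 ± 0.19, adjusted p = 0.00584), a call lost without knockout replicate 2 (0.0672). It lies in a stretch of chromosome 1 where most genes were called lower. Its SPDEF-OE levels were 18.3 and 16.2 CPM. Among 50 measured chaperones and folding enzymes of the endoplasmic reticulum, edgeR's quasi-likelihood test and DESeq2 each called 0 (0 higher and 1 lower with the block). An unadjusted p under 0.05 in edgeR's test was found for 7 of the 50, and for 2441 of all 14473 tested genes. Hspa5, the main such chaperone, had 600 and 670 CPM in the control and 647 and 643 in the knockout, and Dnajb9, its cochaperone, had 20.2 and 19.3 against 25.4 and 23.4.

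Among mucus components, Clca1, Muc20 and Tff2 fell, and the others described here were not called without the block. Clca1, a secreted protein of goblet cell mucus, had 158 and 115 CPM in the control and 36.9 and 26.5 in the knockout. It fell by 2.11 ± 0.20 on the log2 scale (adjusted p = 0.000601) and was kept in all 4 fits. Muc20, a membrane mucin, went from 14.5 and 19.1 CPM to 4.86 and 5.46. It fell by 1.70 ± 0.23 (adjusted p = 0.00344) and was kept in all 4 fits. Unlike Creb3l1 and Foxa3, these genes were not higher in the SPDEF-OE libraries, where Clca1 had 11.3 and 13.3 CPM and Muc20 had 1.17 and 1.76. Tff2, a trefoil peptide of gastric mucus encoded on chromosome 17, went from 4.64 and 2.1 CPM to 0.177 and 0.59 (log2 difference -2.98 ± 0.62, adjusted p = 0.0363), a call lost in each of the 4 fits that left out a library, at up to 0.209 without knockout replicate 1. The gel-forming mucin Muc5ac had 5.17 and 15.3 CPM in the control and 15.9 and 35.7 in the knockout (adjusted p = 0.285, and 0.00168 with the block). The membrane mucin Muc13 had 39.3 and 20.1 CPM against 67 and 66 (adjusted p = 0.0647, and 0.0494 with the block). Muc1, the most abundant of the mucins named here, had 267 and 281 CPM against 295 and 247, so its groups overlapped. Tff1 overlapped too, at 53.6 and 17.1 CPM in the control and 18.3 and 28.8 in the knockout. Muc6 was near the detection limit, at 0.457 and 1.57 CPM against 0 and 0.688. Agr3 and Gata6 were at 0 in all 4 libraries.

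**Figure D1:**
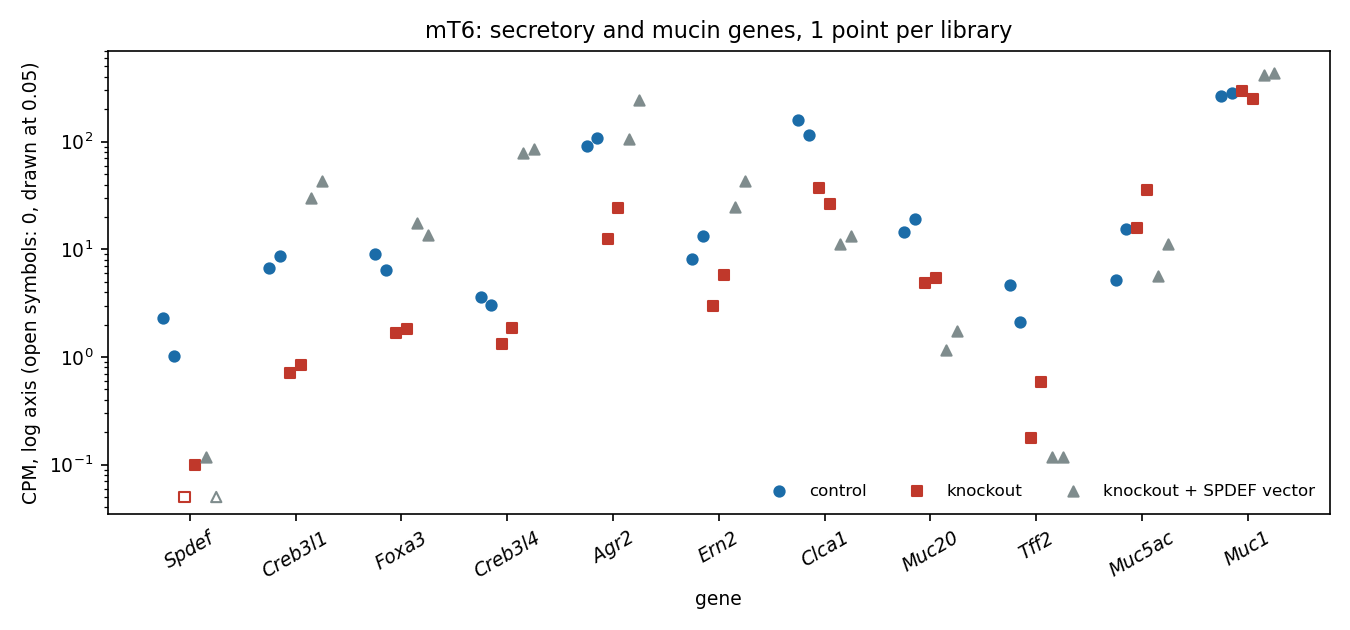
CPM on a log axis for 11 secretory and mucin genes in the 6 mT6 libraries, 1 point per library, with control as circles, knockout as squares and the knockout clone with the SPDEF vector as triangles (open symbols mark 0). Creb3l1, Foxa3, Creb3l4 and Agr2 are lower in both knockout squares than in both control circles, with the triangles at or above the control, whereas Clca1 and Muc20 are lower still in the triangles.

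As lists, these genes gave small counts of calls. For every list here and below, the shares over all tested genes are 1.28% higher and 1.96% lower, and 5.4% and 7.14% with the block. Of 27 measured members of the secretory and goblet cell list (38 genes), 0 rose and 5 fell, namely Creb3l1, Foxa3, Clca1, Creb3l4 and Qsox1, and the median log2 difference was -0.51 against 0.013 over all tested genes. With the block 2 were higher and 11 lower. Of 13 measured mucins and trefoil factors 0 rose and 2 fell (2 and 2 with the block), with a median of -0.57. Of 31 measured enzymes of mucin O-glycosylation 1 rose and 2 fell (3 and 4 with the block), with a median of 0.13. The gene that rose was C1galt1, which builds the core structure of mucin glycans, from 225 and 188 CPM to 349 and 309 (log2 difference 0.67 ± 0.13, adjusted p = 0.0252). B3gnt7, an acetylglucosaminyltransferase on chromosome 1, and Fut4, a fucosyltransferase, fell by 1.67 ± 0.37 and 1.24 ± 0.26. Those 3 calls were each lost without control replicate 2, knockout replicate 1 or knockout replicate 2, and that of Fut4 also without control replicate 1, with adjusted p of up to 0.281.

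Genes on chromosomes 1, 14, 17 and 19 were lower in the knockout as whole chromosomes. The 2568 tested genes there had a median log2 difference of -0.35, with 12 called higher and 183 lower (7.13%). The 11905 genes on all other chromosomes had a median of 0.065, with 173 higher (1.45%) and 100 lower (0.84%). Chromosome 17 had the largest shift, a median of -0.44 over 691 genes, of which 90.4% lay below 0, 46 fell and 0 rose. Chromosome 14 had a median of -0.37 over 506 genes (84% below 0), with 40 lower and 2 higher. Chromosome 19 had -0.29 over 481 genes (81.7% below 0), with 16 lower and 0 higher, and chromosome 1 had -0.28 over 890 genes (78.2% below 0), with 81 lower and 10 higher. Medians of the other nuclear chromosomes ran from -0.022 on chromosome 8 to 0.16 on chromosome 3. The shift was alike in libraries paired by number: on chromosome 17 it was -0.44 in each pair, and on chromosome 1 it was -0.30 and -0.25. In mT69a the same 4 chromosomes had medians of -0.0071, 0.076, 0.032 and 0.0053, in the order 1, 14, 17 and 19, while its chromosomes 12 and 18 were at -0.34 and -0.49. These medians are descriptions, since 2 libraries against 2 cannot reach the threshold in an exact permutation test (smallest two-sided p 0.333).

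Per library, medians on these chromosomes lay higher in the control than in every library of the knockout clone. The chromosomes were set apart with earlier results of these data known, so this is a description and not a test. On chromosome 17 the median gene lay 0.34 and 0.29 above the mean of the 3 mT6 groups in the control libraries, and at -0.10 and -0.16 in the knockout libraries. The libraries of the same clone with SPDEF-OE lay at -0.11 and -0.23, beside the knockout. On chromosome 14 the values were 0.25 and 0.25 in the control, -0.11 and -0.13 in the knockout and -0.14 and -0.08 with SPDEF-OE.

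**Figure D2:**
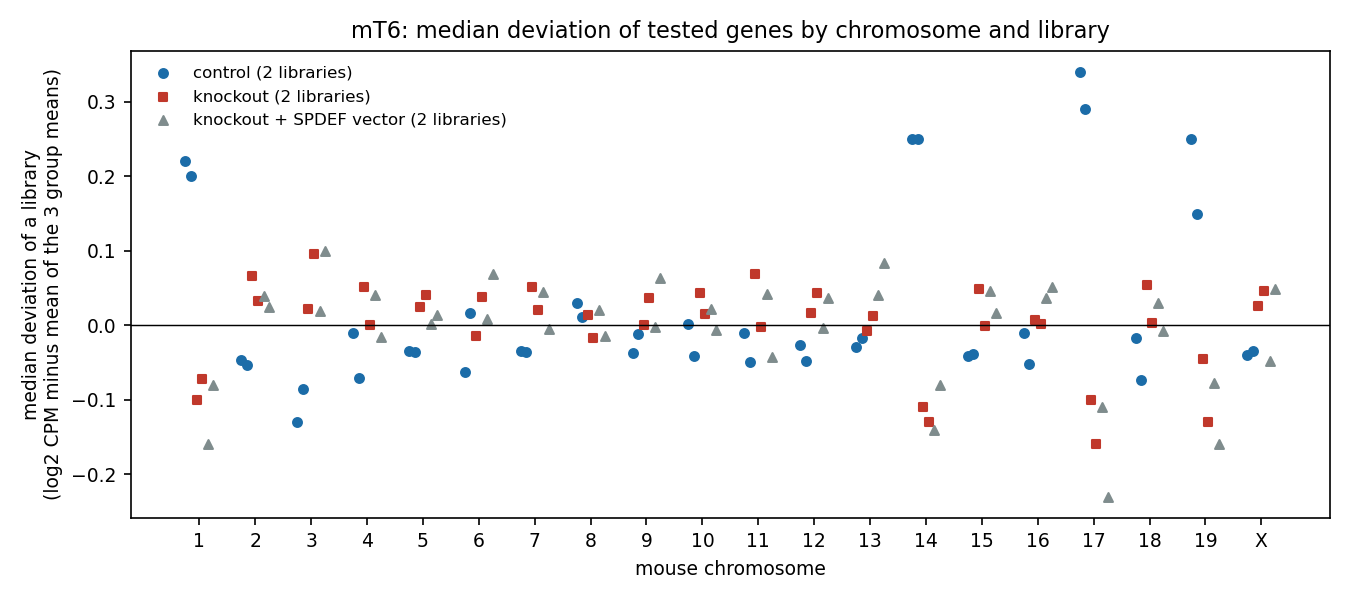
Median deviation of tested genes on each nuclear chromosome (log2 CPM minus the mean of the 3 mT6 group means), 1 point per library. On chromosomes 1, 14, 17 and 19 the control circles lie at 0.15 to 0.34 and the 4 libraries of the knockout clone below 0, while the groups lie closer together on the other chromosomes.

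The lower values ran along the whole of chromosomes 14, 17 and 19. In windows of about 30 neighbouring tested genes, all 16 medians on chromosome 14 were below 0 (-0.61 to -0.21), as were all 23 on chromosome 17 (-0.54 to -0.26) and all 16 on chromosome 19 (-0.41 to -0.14). On chromosome 1 all 29 were below 0, but 3 consecutive windows had medians of -1.26 to -1.21. Overlapping them, a stretch at chr1:149829618-166166510, from Pla2g4a to Gpa33, held 98 tested genes with a median of -1.26, that is 2.39-fold lower, and quartiles of -1.41 and -0.99. Its limits were set after the values were seen. In it 93 genes lay below 0, 59 were called lower (60.2%) and 0 higher. The remaining 792 genes of chromosome 1 had a median of -0.24, with 22 lower and 10 higher. In mT69a the stretch had a median of -0.062. Median deviations in it were 0.82 and 0.83 in the control, -0.41 and -0.34 in the knockout and -0.51 and -0.35 with SPDEF-OE.

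Genes known for different functions fell in that stretch. Pla2g4a, a phospholipase that releases arachidonic acid, went from 64.4 and 73.1 CPM to 22.8 and 33.7 (adjusted p = 0.00998, and 0.0663 and 0.0744 without control replicate 2 or knockout replicate 1). Tpr, a nuclear pore protein, fell by 1.26 on the log2 scale (adjusted p = 0.00206) and Glul, which makes glutamine, by 1.69 (adjusted p = 0.000652). Atp1b1, the beta subunit of the sodium pump, went from 159 and 185 CPM to 40.3 and 57 (log2 difference -1.82 ± 0.23, adjusted p = 0.00294). Ptgs2, beside Pla2g4a, was among the 5 genes of the stretch that did not lie below 0 (0.13, adjusted p = 0.973). The files hold RNA values only.

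**Figure D3:**
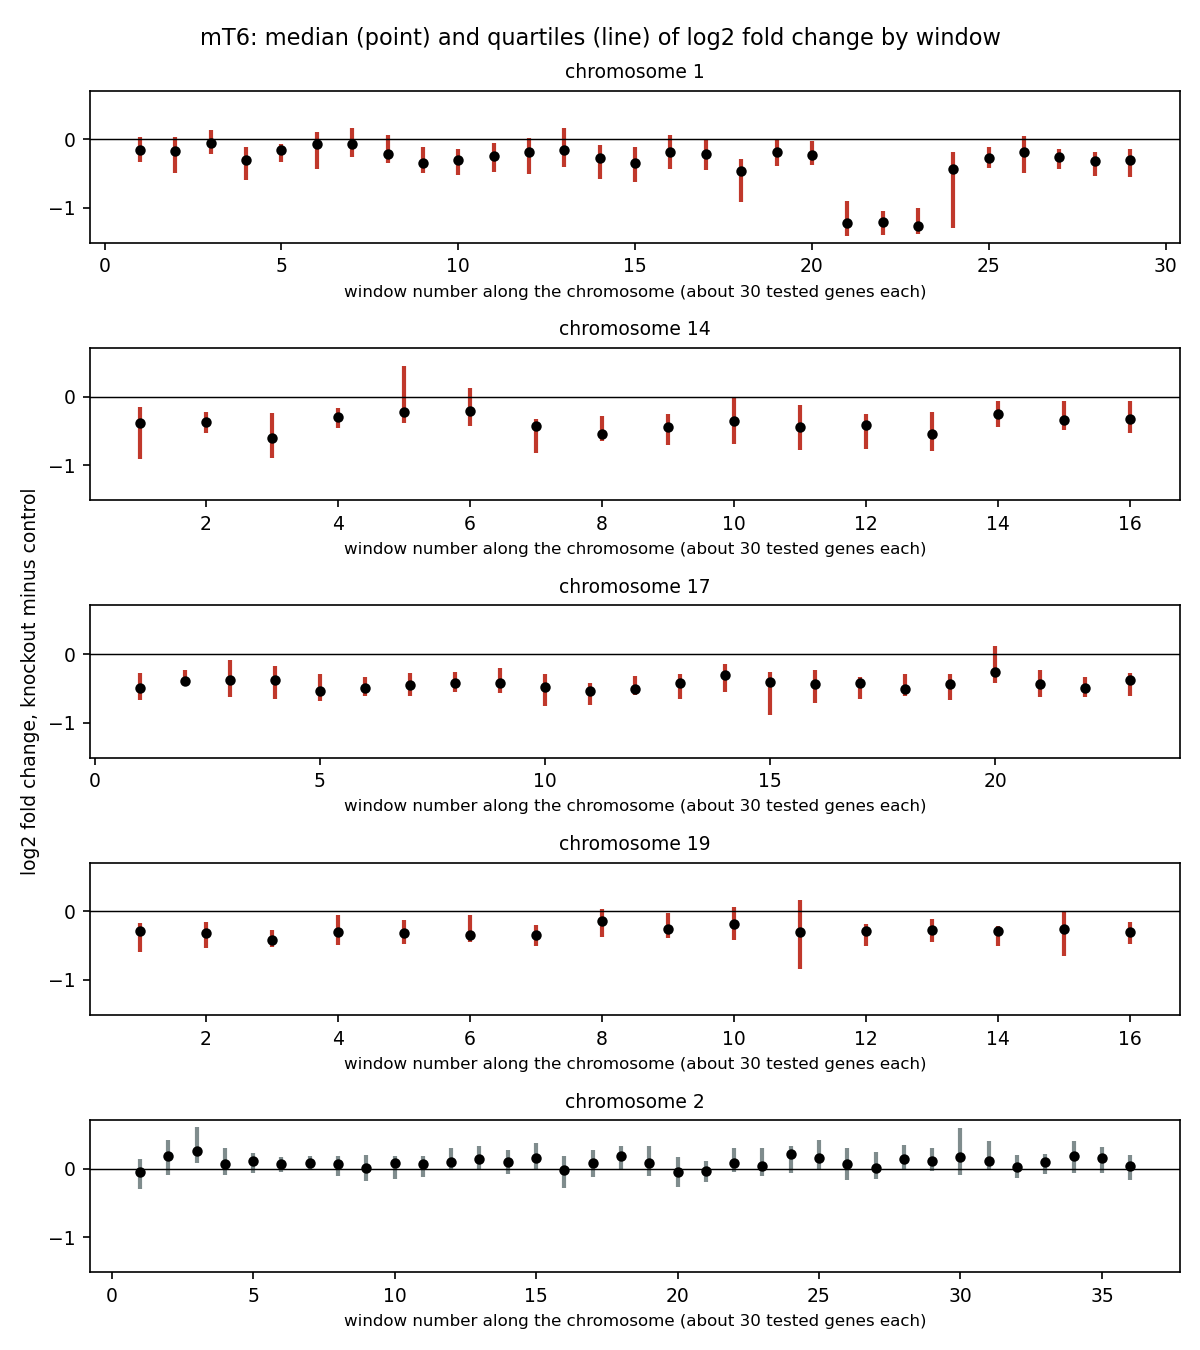
Median (points) and quartiles (lines) of the log2 difference, knockout minus control, in windows of about 30 neighbouring tested genes, ordered along chromosomes 1, 14, 17 and 19 and, for comparison, chromosome 2. All window medians of the first 4 lie below 0, with 3 of chromosome 1 near -1.2, whereas those of chromosome 2 run from -0.048 to 0.26. Over all other nuclear chromosomes the medians run from -0.28 to 1.03. Of those 389 windows 3 have a median below -0.2, against 71 of 84 on the 4 chromosomes.

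Spdef lies on chromosome 17, and its neighbours carried the same shift. Of 12 genes tested within 500000 bases of it, all 12 lay below 0, with a median of -0.45. Of these 1 was called, and 8 with the block. Def6, a guanine nucleotide exchange factor, was the gene called, at 7.38 and 5.71 CPM in the control and 2.12 and 0.983 in the knockout (log2 difference -2.12 ± 0.35, adjusted p = 0.00954), a call lost without control replicate 1 or knockout replicate 2 (adjusted p = 0.0559 and 0.072). Rps10, a ribosomal protein gene among the neighbours, had 384 and 349 CPM against 292 and 249 (adjusted p = 0.126, and 0.00746 with the block). At the site targeted in the control, the noncoding Gt(ROSA)26Sor had 7.91 and 9.42 CPM in the control and 11.6 and 13.3 in the knockout (log2 difference 0.52 ± 0.25, adjusted p = 0.345, and 0.035 with the block). Its neighbours Setd5 and Thumpd3 were not called (adjusted p = 0.47 and 0.471).

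Single genes on the 4 chromosomes moved far beyond the shift. On chromosome 14, Scara3, a scavenger receptor, went from 11.2 and 3.89 CPM to 0.442 and 0.0983 (log2 difference -4.96 ± 0.67, adjusted p = 0.00465). Epsti1, an interferon-inducible gene, went from 9.74 and 8.49 CPM to 0.265 and 0.442 (-4.57 ± 0.40, adjusted p = 0.00032). Olfm4, a secreted glycoprotein of intestinal stem cells, went from 160 and 67.1 CPM to 9.98 and 6.49 (-3.80 ± 0.42, adjusted p = 0.00201). On chromosome 1, Khdc1a went from 33.9 and 13.8 CPM to 0.442 and 0.393 and Adora1, an adenosine receptor, from 6.39 and 5.71 to 0.353 and 0.737. St8sia4, a polysialyltransferase, went from 6.62 and 9.49 CPM to 0.442 and 1.87 and stood at 22.1 and 48.8 with SPDEF-OE. On chromosome 17, Rhoq, a small GTPase, fell by 1.99 ± 0.37 and Nlrc4, an inflammasome adaptor, by 1.82 ± 0.23. On chromosome 19 the glutathione S-transferase Gstp2 fell by 1.5 ± 0.29, Asrgl1, an asparaginase, by 1.49 ± 0.19, and Dtx4, a Notch pathway ubiquitin ligase, by 1.33 ± 0.17. Against the shift, the chromosome 1 genes Serpinb11, Slco5a1 and Lgr6 rose by 2.86 ± 0.37, 2.21 ± 0.50 and 1.77 ± 0.41. Scara3 lost its call without knockout replicate 2, Rhoq without control replicate 1 or knockout replicate 2, Slco5a1 without any of the other libraries than control replicate 1, and St8sia4, Gstp2 and Lgr6 in each of the 4 fits, with adjusted p of up to 0.281.

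Outside those chromosomes the largest rise was in Tacr3, the receptor for neurokinin B. It had 0.152 and 0.285 CPM in the control and 32.3 and 40.5 in the knockout, and 33.3 and 29 with SPDEF-OE. Its rise was 7.20 ± 0.29 in log2 units (adjusted p = 2.46e-06). Il5ra, the interleukin-5 receptor alpha chain, went from 9.21 and 5.17 CPM to 97.4 and 66.1, a rise of 3.54 ± 0.34 (adjusted p = 0.000707), and Naip1, an inflammasome sensor that works with Nlrc4, from 3.12 and 4.96 to 39.7 and 41.9, a rise of 3.29 ± 0.22 (adjusted p = 0.000145). Lrrc66 went from 12.1 and 11.7 CPM to 77.9 and 77.6. Homer2, a synaptic scaffold protein, went from 1.9 and 2.75 CPM to 14.8 and 16.5. Akr1c18, a steroid dehydrogenase, went from 0.761 and 0.856 CPM to 7.25 and 5.85. Each of these genes was kept in all 4 fits. For Tacr3, Il5ra, Lrrc66 and Homer2 the SPDEF-OE libraries lay far above the control, as in the knockout. For Naip1 (27.1 and 19.4 CPM) and Akr1c18 (2.8 and 4.1 CPM) they lay above the control too, but below the knockout.

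Of other genes that rose, Bcl2l15, Ptpn22 and Psca stood below their control levels in the SPDEF-OE libraries, and Prkg2 stood at its knockout level. Bcl2l15, of the BCL2 family, had 2.66 and 1.57 CPM in the control, 17.5 and 9.58 in the knockout and 1.17 and 0.821 with SPDEF-OE. Ptpn22, a tyrosine phosphatase, had 1.83 and 1.86 CPM in the control, 9.45 and 8.4 in the knockout and 0.584 and 0.469 with SPDEF-OE. Psca, a surface antigen, had 2.89 and 6.07, 20.1 and 23.4, and 0.934 and 1.41 CPM in the same order. Bcl2l15 rose by 2.71 ± 0.37, Ptpn22 by 2.27 ± 0.30 and Psca by 2.24 ± 0.34 (adjusted p = 0.00354, 0.00329 and 0.00675), and Psca alone of the 3 lost its call when a library was left out (0.0506 without knockout replicate 2). Nrcam, an adhesion molecule, had 1.07 and 1.61 CPM in the control, 10.7 and 8.5 in the knockout and 2.1 and 2.7 with SPDEF-OE (log2 difference 2.80 ± 0.45, adjusted p = 0.00932, lost without control replicate 1 or knockout replicate 1 at 0.0634 and 0.0546). Hs3st3b1, a heparan sulfate sulfotransferase, had 1.37 and 0.464 CPM in the control, 8.48 and 7.03 in the knockout and 5.84 and 2.23 with SPDEF-OE, and rose by 3.17 ± 0.64 (adjusted p = 0.0315, and 0.164 without control replicate 2). Prkg2, a cGMP-dependent kinase, had a smaller but tight rise, from 37.4 and 33 CPM to 94.9 and 101, with 96.9 and 104 with SPDEF-OE (1.48 ± 0.12, adjusted p = 0.00032).

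Of the deepest falls outside those chromosomes, Ppp1r9a and Ror2 reached the detection limit. Ppp1r9a, an actin-binding phosphatase scaffold, had 8.67 and 13.3 CPM in the control and 0 counts in the knockout, and was at least 125-fold lower against a floor of 3 counts over the group. Ror2, a Wnt receptor kinase, had 4.57 and 5.82 CPM in the control and 0 and 0.0491 in the knockout, a ratio of 171 from 1 knockout count (95% counting interval 30.5 to 6804). Sel1l3 had 24.3 and 23.5 CPM against 0.442 and 0.295 and fell by 6.06 ± 0.40 (adjusted p = 0.000145). Cyba, a subunit of NADPH oxidase, had 46.3 and 31.7 CPM against 1.41 and 0.59 and fell by 5.39 ± 0.45 (adjusted p = 0.00032). Igfbp4, which binds insulin-like growth factors, had 86.1 and 71.9 CPM against 6.27 and 2.85, and Anxa13, an epithelial annexin, 6.85 and 10.4 against 0.884 and 0.393. In none of these 6 genes did the SPDEF-OE libraries reach the control, and the highest of them, Igfbp4, stood at 10.3 and 9.5 CPM there.

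Matrix and developmental genes were also among the deepest falls. Mmp7, a protease of epithelia, had 23.4 and 8.95 CPM in the control and 1.33 and 0.885 in the knockout (log2 difference -3.89 ± 0.56, adjusted p = 0.00503, and 0.0674 without knockout replicate 2). Col14a1, a fibril-associated collagen, fell by 3.41 ± 0.36, Tbx1, a T-box factor, by 3.32 ± 0.36, and Pear1, a receptor with EGF-like repeats, by 3.09 ± 0.24. Zfp827, a zinc finger protein, fell by 2.77 ± 0.35. Parp8 and Mical1, an actin-oxidising enzyme, fell by 2.75 ± 0.51 and 2.64 ± 0.45, calls that Parp8 lost in each of the 4 fits and Mical1 without any of the libraries but control replicate 1, with adjusted p of up to 0.134. Ppic, a peptidyl-prolyl isomerase, had 14.9 and 16.3 CPM in the control, 2.83 and 2.56 in the knockout and 16.5 and 20.6 with SPDEF-OE (log2 difference -2.55 ± 0.18, adjusted p = 0.000254).

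**Figure D4:**
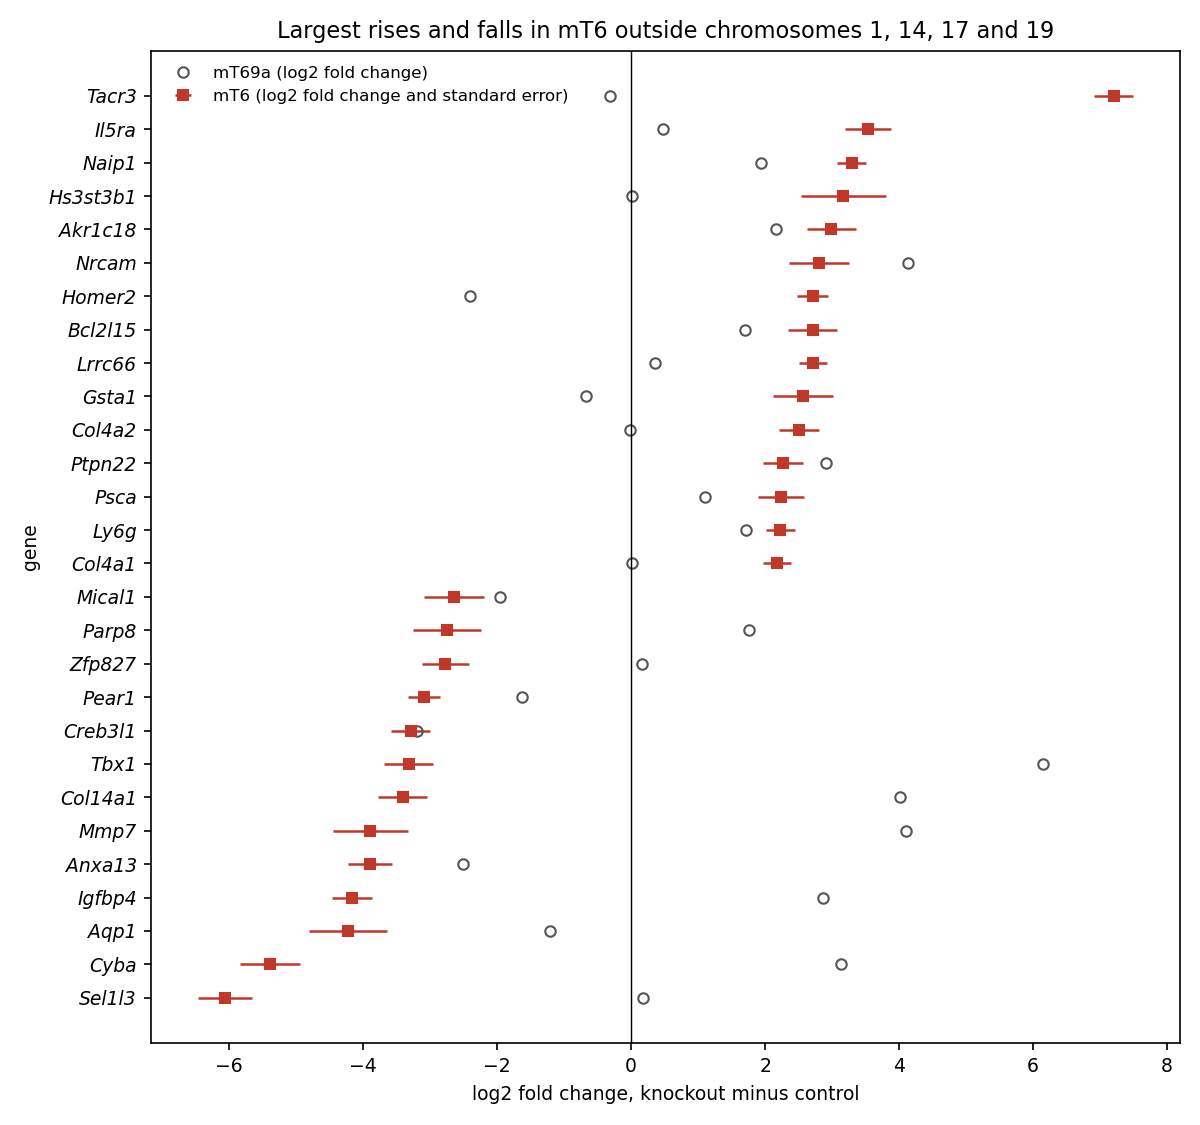
Log2 difference, knockout minus control, of the largest rises and falls outside chromosomes 1, 14, 17 and 19. Squares show mT6, with the standard error, and open circles show the same genes in mT69a. Ppp1r9a and Ror2 are not drawn because their mT6 knockout counts lie at or under the floor, which was not applied to mT69a. Tacr3 is at 7.20 in mT6 and -0.31 in mT69a, and the circles of Homer2, Cyba, Igfbp4, Mmp7, Col14a1, Tbx1 and Parp8 lie well on the other side of 0 from their squares, while those of Gsta1 (-0.67), Sel1l3 (0.18), Zfp827 (0.16) and Col4a2 (-0.0083) lie there nearer to 0.

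The type IV collagen genes Col4a1 and Col4a2 rose, while Col4a6, of the same family, fell. Col4a1, which encodes a main collagen chain of basement membranes, had 14.1 and 10 CPM in the control and 58.8 and 49.8 in the knockout, and Col4a2, its partner encoded next to it on chromosome 8, had 9.97 and 8.85 against 56.8 and 50.3. They rose by 2.18 ± 0.21 and 2.51 ± 0.30 (adjusted p = 0.000652 and 0.00245), and both were kept in all 4 fits. Of 31 measured genes of basement membrane and integrins 3 rose and 4 fell (5 and 5 with the block), with a median of -0.07. The third rise was Dst, a cytoskeletal linker on chromosome 1, by 1.45 ± 0.26 (adjusted p = 0.0164). Col4a6 fell by 1.91 ± 0.34, Nid1, a basement membrane linker, by 1.27 ± 0.30, and Col18a1 by 0.96 ± 0.14. Col4a6 lost its call without control replicate 2, knockout replicate 1 or knockout replicate 2 (adjusted p = 0.156, 0.128 and 0.0582), Nid1 without control replicate 1, control replicate 2 or knockout replicate 2 (0.2, 0.0688 and 0.221), Col18a1 without knockout replicate 1 (0.0524) and Dst in each of the 4 fits, at up to 0.104. Of 21 measured TGF-beta targets 3 rose and 0 fell (7 and 2 with the block), with a median of 0.50. They were Col4a1 and the helix-loop-helix inhibitors Id1 and Id3, which went from 15.1 and 9.35 CPM to 39.7 and 28.5 and from 2.97 and 2.46 to 6.19 and 7.32. Id1 lost its call without control replicate 2 or knockout replicate 1 (adjusted p = 0.145 and 0.15), and Id3 without control replicate 2 or knockout replicate 2 (0.116 and 0.0858).

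A few duct and fluid transport genes were called without the block, all of them lower. Aqp1, a water channel, had 14.2 and 50.6 CPM in the control and 1.33 and 2.06 in the knockout (log2 difference -4.22 ± 0.58, adjusted p = 0.00503, lost without knockout replicate 1 or 2 at 0.0635 and 0.0582). With Clca1 and Atp1b1 it made up the 3 falls, and 0 rises, among 28 measured genes of duct fluid secretion (median -0.16, and 1 higher and 5 lower with the block). Atp1b1 lies in the stretch of chromosome 1 where 60.2% of tested genes were called lower. Cldn2, a claudin that forms paracellular pores, had 189 and 181 CPM in the control, 54.9 and 55.2 in the knockout and 96.7 and 159 with SPDEF-OE. It fell by 1.75 ± 0.22 (adjusted p = 0.00288) and was the only call among 37 measured claudins and junction genes, against 3 higher and 1 lower with the block. Of 23 measured genes of ductal and progenitor identity 0 rose and 2 fell (3 and 6 with the block). These were Bicc1, an RNA-binding protein of ducts, from 10.5 and 8.56 CPM to 1.94 and 1.47, and the keratin Krt23, from 14 and 13.5 to 3.62 and 3.19, and both were kept in all 4 fits.

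A few detoxification genes were called, most of them higher. Of 30 measured NRF2 and glutathione genes 4 rose and 1 fell (8 and 2 with the block), with a median of 0.26. Gsta1, a glutathione S-transferase, had 23 and 15.5 CPM in the control and 146 and 80.6 in the knockout (log2 difference 2.57 ± 0.45, adjusted p = 0.0202). Nqo1, a quinone reductase, rose by 1.14 ± 0.25, Srxn1, a sulfiredoxin, by 1.05 ± 0.22, and Gsta4 by 0.58 ± 0.12, while Gsta3 on chromosome 1 fell by 1.62 ± 0.32. Of these calls, that of Gsta1 was lost without control replicate 1, control replicate 2 or knockout replicate 1 (0.0841, 0.156 and 0.114), that of Srxn1 without the same libraries (0.06, 0.193 and 0.211), and those of Nqo1, Gsta3 and Gsta4 in each of the 4 fits, at up to 0.22. The glutathione S-transferases have close paralogs, between which counting can split reads.

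A run of Ly6 genes on chromosome 15 rose together, a set singled out after its values were seen. Of 17 genes tested between Psca and Ly6f, at chr15:74714839-75272235, 7 rose and 0 fell, with a median of 0.79. These genes encode small surface or secreted proteins. Ly6g had 7.99 and 9.31 CPM in the control and 42.5 and 39 in the knockout (log2 difference 2.23 ± 0.22, adjusted p = 0.000652), and it was kept in all 4 fits. Ly6d had 37.7 and 30.1 CPM against 192 and 110 (adjusted p = 0.0375, lost in each of the 4 fits, at up to 0.22). Ly6c1 went from 184 and 108 CPM to 486 and 394, Slurp1 from 4.34 and 5.35 to 13.7 and 18.5, and Lynx1 from 58.2 and 73.6 to 131 and 116. Psca and Ly6c2 were the other rises. Slurp1 was kept in all 4 fits. Ly6c1 lost its call without control replicate 2, knockout replicate 1 or knockout replicate 2 (0.0976, 0.114 and 0.0582), Lynx1 without control replicate 1, knockout replicate 1 or knockout replicate 2 (0.119, 0.116 and 0.0571), and Ly6c2 in each of the 4 fits, at up to 0.232. Not all of the cluster moved: the abundant Ly6e had 1189 and 1263 CPM against 1174 and 1162 (adjusted p = 0.879), and Ly6a had 923 and 581 against 1425 and 1165 (adjusted p = 0.103, and 0.0032 with the block). Several of these genes are near-identical copies, so that the split of reads between them is uncertain.

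Subtype lists of pancreatic cancer gave few calls. Of 42 measured markers of the classical subtype 0 rose and 2 fell, Foxa3 and Tff2 (5 higher and 6 lower with the block), with a median of -0.055. Of 31 measured markers of the basal-like subtype 2 rose, Ly6d and the growth factor gene Ereg, and 1 fell (9 and 2 with the block), with a median of 0.54. Ereg went from 20.2 and 12.3 CPM to 44.4 and 32.7 (log2 difference 1.25 ± 0.25, adjusted p = 0.0258), a call lost without control replicate 2 or knockout replicate 1 (0.142 and 0.165). Krt17 was at 0 in all 4 libraries. Of 12 measured genes of epithelial-mesenchymal transition 0 rose and 2 fell, the matrix enzymes Loxl2 and Mmp14, both on chromosome 14 (0 and 3 with the block). Loxl2 lost its call without control replicate 1 or knockout replicate 2 (0.131 and 0.111), and Mmp14 in each of the 4 fits, at up to 0.164.

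Other lists lost genes mainly on the 4 chromosomes. Of 20 measured genes of MHC class I presentation, 16 lie there, 0 rose and 2 fell (0 and 6 with the block), with a median of -0.53. H2-D1, a classical class I heavy chain on chromosome 17, went from 297 and 314 CPM to 200 and 202 (log2 difference -0.60 ± 0.14, adjusted p = 0.0464), and H2-Q7, which has close paralogs, fell by 1.72 ± 0.40. B2m, the partner chain on chromosome 2, was not called (log2 difference -0.30, adjusted p = 0.669). Of 48 measured cell cycle genes 1 rose, the kinesin Cenpe, and 2 fell, Kif11 on chromosome 19 and Mcm6 on chromosome 1 (2 and 4 with the block). Among 23 measured Wnt targets and stem cell genes Lgr6 rose and Olfm4 and Tnfrsf19 fell (3 and 5 with the block). The single falls among targets of p53, of YAP and TEAD, and of the Notch pathway were Tnfrsf10b, Nuak2 and Dtx4, and both falls among genes of transport from endoplasmic reticulum to Golgi were Sec16b and Copa on chromosome 1. With the block, p53 targets had 0 higher and 1 lower, YAP and TEAD targets 2 and 5, the Notch pathway 0 and 2, and the transport genes 1 and 5. Spry2, a feedback inhibitor of MAPK signalling on chromosome 14, fell by 1.28 ± 0.22 while Ereg, of the same list, rose. With the block that list had 1 higher and 3 lower. Of 34 measured ATF4 targets, Nupr1, a stress-induced chromatin protein, rose from 107 and 98.9 CPM to 245 and 205 (log2 difference 1.13 ± 0.15, adjusted p = 0.00354). With the block 1 ATF4 target was higher and 3 were lower.

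Of the genes named from these lists, Nupr1, Olfm4 and Dtx4 were kept in all 4 fits. H2-D1, H2-Q7, Cenpe, Kif11, Mcm6, Lgr6, Nuak2 and Copa lost their calls in each of them, at up to 0.281. Tnfrsf19 lost its call without control replicate 2, knockout replicate 1 or knockout replicate 2 (0.0942, 0.126 and 0.0851) and Tnfrsf10b without control replicate 1, knockout replicate 1 or knockout replicate 2 (0.0857, 0.111 and 0.0762). Sec16b lost it without control replicate 1 or knockout replicate 1 (0.0523 and 0.0744), and Spry2 without control replicate 1 or knockout replicate 2 (0.0809 and 0.106).

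Several lists had no call in edgeR's quasi-likelihood test. These were the interferon response (49 measured, 0 by DESeq2, 2 at an unadjusted p under 0.05), hypoxia and glycolysis (34, 0 and 5, with 5 higher under the block), cholesterol and fatty acid synthesis (32, 1 and 5), chemokines and cytokines (27, 0 and 2), and immediate early and heat shock genes (29, 0 and 2). Genes for replication-dependent histones (65, 0 and 7), ribosomal proteins (78, 1 and 9) and the mitochondrial genome (13, 0 and 1) had none either. Over all 14473 tested genes, 2441 had an unadjusted p under 0.05 in edgeR's test. With the block, cholesterol and fatty acid synthesis had 4 higher and 1 lower, ribosomal proteins 2 and 5, and the interferon response 2 and 0. Chemokines and cytokines had 2 and 0, immediate early and heat shock genes 0 and 2, and histones and the mitochondrial genome 0 and 1 each. The tumour suppressor genes Trp53 and Cdkn2a were not called. Trp53 had 54.2 and 37.8 CPM against 30.9 and 23.2 (adjusted p = 0.226, and 0.0023 with the block) and Cdkn2a had 43.4 and 42.3 against 30.7 and 35.1 (adjusted p = 0.137, and 0.0423 with the block).

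**Figure D5:**
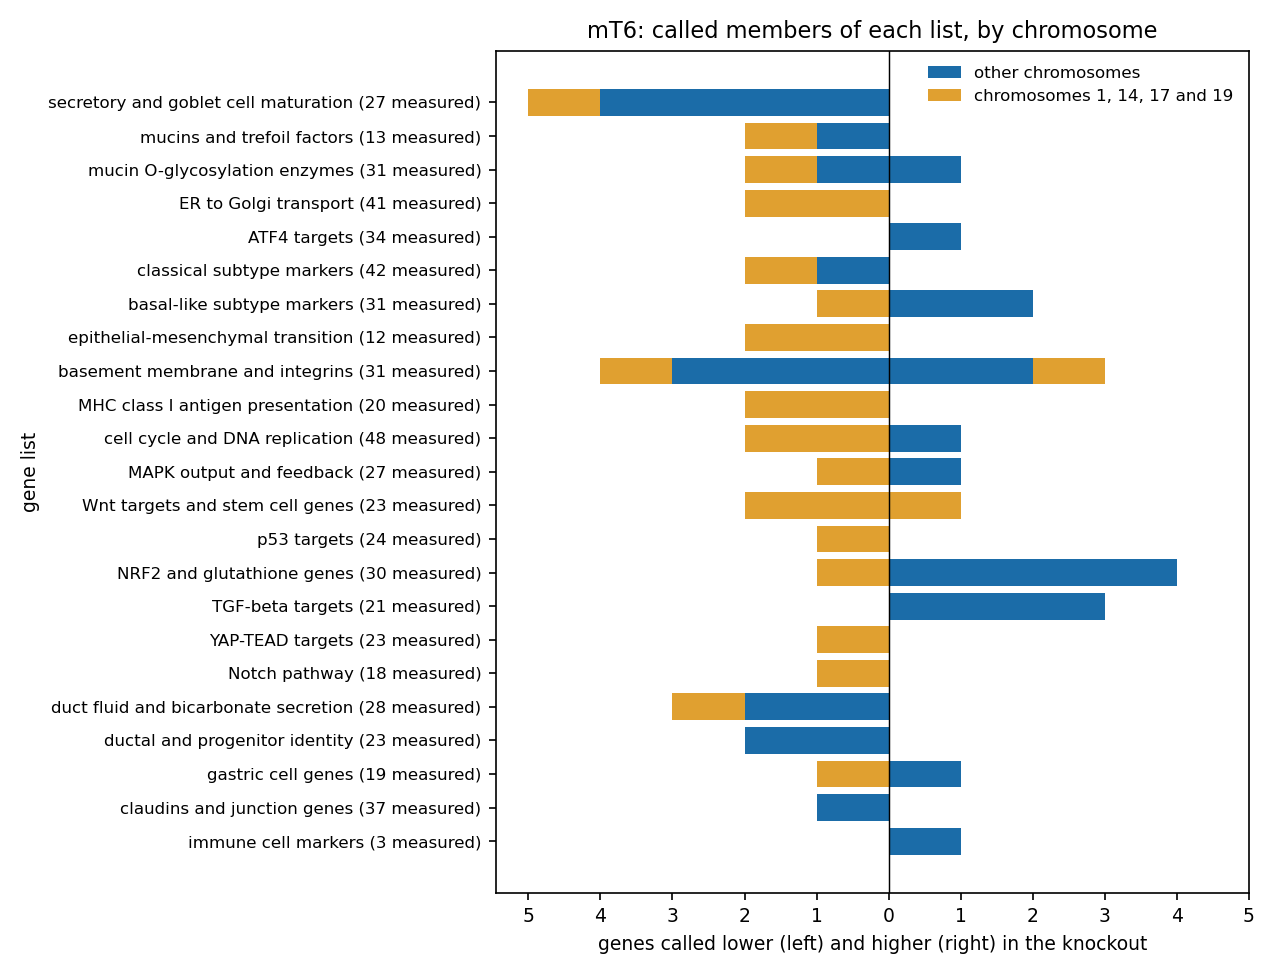
Number of genes called higher (to the right) and lower (to the left) in the mT6 knockout for each gene list with at least 1 call, split by whether the gene lies on chromosomes 1, 14, 17 and 19 (orange) or elsewhere (blue). Secretory and basement membrane genes have called members mostly elsewhere, whereas the called members of the MHC class I and epithelial-mesenchymal transition lists lie on the 4 chromosomes.

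The response of mT6 was set against that of mT69a by testing the difference of the 2 effects, which share no library. It differed for 958 of 14473 genes (6.62%), and for 244 of the 468 genes called in mT6. Those 468 were selected on the mT6 effect that enters this difference, so a higher share among them follows in part from the selection. Of the 468, 70 were also called in mT69a in the same direction and 65 in the opposite one. The share of all tested genes called in mT69a is not given here, so these counts have no background to be read against. Creb3l1 fell by 3.19 in mT69a and Foxa3 by 2.98, and neither difference between the lines passed its test (adjusted p = 1 and 0.247). Agr2 fell by 5.23 in mT69a (0.218 in that test). Creb3l4 was at 0.084 there (0.177), and Foxa2 went opposite ways, at 1.26 in mT6 and -2.30 in mT69a (0.00206). Spdef itself was at -1.48 in mT69a and was not called there (adjusted p = 0.646 for knockout against control, and 0.472 for the difference). Clca1 differed, at -0.58 in mT69a (0.00995 in that test), and Ern2 fell further there, by 5.51 (0.0422). The smallest adjusted p of a difference, among genes called in mT6, were those of Nrn1, a neuritin that rose by 1.19 ± 0.17 in mT6 and fell by 6.52 in mT69a (1.38e-06), Ppic, at -2.55 and 9.69 (3.81e-06), Stra6, a retinol transporter, at -0.95 and 4.70 (5.84e-06), Epsti1, at -4.57 and 5.0 (1.86e-05), and Homer2, at 2.71 and -2.40 (2.37e-05). Muc20 went opposite ways too, at -1.70 and 3.82 (2.62e-05). The floor on counts was applied to mT6 only and mT69a levels are not given here. An mT69a effect as large as 9.69 may therefore rest on a group near the detection limit. In mT6, Stra6 lost its call without control replicate 1, knockout replicate 1 or knockout replicate 2, at up to 0.212.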

How the data were processed

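RNA was measured in 12 libraries prepared with a strand-specific total RNA kit, per the labels' protocols. Reads were checked with FastQC 0.11.8, aligned with STAR 2.5.2b and quantified with RSEM 1.3.0 on GRCm38.p6, per the submitters' processing notes. The authors deposited expected counts and TPM per gene and, for Spdef, expected counts per transcript. RSEM divides reads that match several genes, so near-identical copies share counts, and 8.08% to 11.3% of the deposited expected counts were not whole (tolerance 0.005). Of 53715 gene identifiers, 53620 matched GENCODE M21 (51464 with the same version), and the 95 without a symbol held 0.0109% of counts.

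The 4 libraries of the comparison held 11589956 and 28903831 counts (control) and 10897005 and 21670653 (knockout), and the SPDEF-OE libraries 9111713 and 9094295. Intervals and the floor of 3 counts over a group (0.0729 to 0.0947 CPM) cover counting error only. Replicates differed by far more than sampling noise (chi-square per degree of freedom 72.3 and 61.7), so none was counted as a duplicate.

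Expected counts were rounded, filtered with filterByExpr by group to 14473 genes, scaled with TMM and modelled as 6 group means over 12 libraries with the robust quasi-likelihood fit of edgeR 4.0.16. All groups share the spread (6 residual degrees of freedom and a coefficient of variation between replicates of 19.2%). Knockout minus control in mT6, and its difference from the same contrast in mT69a, were tested two-sided with Benjamini-Hochberg adjustment over all tested genes and a threshold of 0.05. Errors of log2 differences are standard errors. R 4.3.3, limma 3.58.1, DESeq2 1.42.0, matplotlib 3.10.9, scipy 1.17.1, pandas 2.3.3, numpy 2.4.6 and Python 3.11.15 were used, and the fit was tested on simulated data. Alternatives were DESeq2, RLE size factors, no filter, at least 1 CPM in 4 libraries, limma on log2(TPM + 1) and log2(TPM + 0.1) with and without a filter on mean TPM of 1, the 4 libraries alone, scaling without chromosomes 1, 14, 17 and 19, leaving out each library, and the replicate number as a block.

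The labels give replicate numbers 1 and 2 in each group. Deviations of same-numbered libraries from their group means correlated in all 15 pairs of groups (0.194 to 0.490, and 0.490 for mT6 control and knockout). The main fit, which set every call unless the block is named, leaves this pairing out. A separate fit took the replicate number as a block, and its values stand beside many of the results they change.

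The comparison, the 4 chromosomes set apart in it, the gene lists and the named genes were chosen with earlier results of these data known. The rule names 26 genes outright, then, among called genes with a symbol, at least 5 CPM in the higher group and no overlap, the 15 largest rises and falls outside chromosomes 1, 14, 17 and 19, 3 of each on each of those chromosomes, the 5 smallest adjusted p in each direction and for the difference between lines, up to 3 called members of each of 36 lists, and genes within 500000 bases of Spdef. Dst, Nid1, Col18a1, Srxn1, Gsta4, B2m, Ptgs2, Pla2g4a, Tpr, Glul, Qsox1 and the Ly6 genes were named after their values were seen. Results for some genes are not reported here. A gene called measured passed the count filter. The median of all genes moved from 0.013 to -0.05 when scaled without the 4 chromosomes.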

Additional observations from a re-analysis of the deposited data

Results flagged for a closer look

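For 38 of the 82 named genes called in mT6, the knockout effect differed between mT6 and mT69a by edgeR's test of that difference over all genes. The share over all tested genes was 6.62%. Many genes were named for a large mT6 effect and some for a small adjusted p of this difference, so a high count was built in. The floor on counts was not applied to mT69a. Values are the mT6 effect minus the mT69a effect on the log2 scale, where a negative value means that the gene was lower in the mT6 knockout relative to mT69a.

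Among secretory and mucin genes the difference was -1.52 for Clca1, -5.52 for Muc20, -4.94 for B3gnt7 and -2.13 for Fut4. Sec16b, of vesicle coats, stood at -2.25. Basement membrane and matrix genes split: Col4a1 and Col4a2 were at 2.17 and 2.52, while Col14a1 was at -7.42, Loxl2 at -3.23, Mmp14 at -1.77 and Mmp7 at -7.98.

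On the 4 chromosomes with shifted medians, Scara3 was at -6.43, Epsti1 at -9.58, Spry2 at -1.28 and Tnfrsf10b at -1.34 (chromosome 14). Def6 was at -2.62, Rhoq at -3.82, H2-D1 at -0.94 and H2-Q7 at -6.92 (chromosome 17). Asrgl1 was at -3.23 and Dtx4 at -1.59 (chromosome 19), and Lgr6 was at -2.71 (chromosome 1).

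Of the largest rises in mT6, Tacr3 differed by 7.51, Homer2 by 5.11, Gsta1 by 3.24, Il5ra by 3.06, Lrrc66 by 2.35 and Naip1 by 1.36, and Nrn1 differed by 7.71. Of the largest falls, Tbx1 differed by -9.47, Cyba by -8.53, Igfbp4 by -7.03, Sel1l3 by -6.24, Parp8 by -4.52, Zfp827 by -2.94 and Pear1 by -1.47. Ppic and Stra6, which fell by less than those genes in mT6 and rose in mT69a, differed by -12.23 and -5.66.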

How the results depend on the processing

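Groups of 2 libraries limit every call, and all p-values rest on a spread shared over 6 groups. Fitted on the 4 libraries alone, 5 genes were higher and 8 lower, against 185 and 283. DESeq2 gave 288 higher, no filter 483 higher and 606 lower, and limma gave 36 higher and 56 lower on log2(TPM + 0.1), 35 and 62 on log2(TPM + 1), and 29 and 70 on log2(TPM + 1) with no filter. With the replicate block 781 were higher and 1033 lower. Leaving out a library gave 49 to 72 higher and 87 to 140 lower. The difference between lines was called for 274, 289 and 239 genes on these TPM scales in the same order, 1577 with no filter, 2206 with the replicate block and 588 to 674 with a library left out, against 958. Besides the genes whose blocked p is printed above and the other neighbours of Spdef counted there, the block changed no call of a named gene.

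Medians of chromosomes 1, 14, 17 and 19 stayed below 0 in every alternative run. On log2(TPM + 1) with no filter they were -0.048, -0.077, -0.20 and -0.12 in that order, and scaled without these chromosomes -0.34, -0.43, -0.50 and -0.35. The medians of chromosomes 1 and 14 were -0.24 and -0.33 with DESeq2, -0.25 and -0.35 with no filter and -0.24 and -0.34 on log2(TPM + 0.1). On log2(TPM + 1), chromosomes 1, 14 and 17 were at -0.21, -0.30 and -0.37. Leaving out a library gave -0.34 to -0.27 for chromosome 1 and -0.40 to -0.34 for chromosome 14.

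Genes that were not called changed sign with a library left out: Foxa1 ran from -0.54 to 0.02 (0.0032 without knockout replicate 2), Muc1 from -0.15 to 0.12 (0.023 without control replicate 2), Tff1 from -1.18 to 0.47 and Hspa5 from -0.051 to 0.11. Hspa5 was also at -0.0018 on each TPM scale and at -0.043 scaled without the 4 chromosomes. Of 82 named genes called, 41 were called in all 4 fits that left out a library and 17 in none. The cause of these changes was not tested.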
